A study of Mus musculus with 11 samples.

Results

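The zinc finger gene clusters on chromosomes 2, 4 and 12 of the mouse were examined for open chromatin in embryonic stem cells of 2 inbred strains and of 2 congenic strains derived from them. The clusters were taken as fixed windows of the GRCm38 genome: chr2:174900000-178300000, chr4:145000000-148000000 and chr12:17500000-25000000. Every region of the deposited count table that starts inside a window is a member. This gave 236 regions on chromosome 2, 485 on chromosome 4 and 798 on chromosome 12, together 1519 of the 248336 regions of the table, or 0.612%. Open chromatin was read out with ATAC-seq, where Tn5 transposase cuts accessible DNA and adds sequencing adapters to it. B6 stands for line B6 5-1 of strain C57BL/6J and D2 for line D2 5-5 of strain DBA/2J, each with 3 libraries. The B6-13D2 line (strain B6.D2-(rs30079041-rs51756099)/Bakr, line QJ 6-1, 2 libraries) is B6 except for a D2 interval on chromosome 13. The D2-13B6 line (line XE 2-4, 3 libraries) is D2 except for a B6 interval on the same chromosome, and its sample labels give the strain as D2.B6-(rs29224292-rs13469455)/Bakr while the design text ends the interval at rs51756099. All 4 lines were grown in serum medium with LIF, 1 uM of the MEK inhibitor PD0325901 and 3 uM of the GSK3 inhibitor CHIR99021, and each library came from 100000 cells. None of the windows lies on chromosome 13, so that both D2-13B6 and D2 carry the D2 background here and both B6 and B6-13D2 carry the B6 background. Each genotype was a single cell line and the labels call its libraries technical replicates, so the errors and p-values below measure how far technical libraries of 1 line vary, not animals or cultures.

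KRAB zinc finger proteins bind DNA through arrays of C2H2 zinc fingers, each of which contacts a few bases, and through their KRAB domain recruit the corepressor TRIM28 (KAP1). TRIM28 in turn brings the H3K9 methyltransferase SETDB1 and HP1 proteins, which silence transposable elements in embryonic stem cells. The genes lie in clusters that grew by repeated duplication, so that neighbouring genes, their finger exons and their promoters can be near copies of each other, and the clusters differ in content between mouse strains. The clusters are themselves known to carry H3K9me3 over the finger exons.

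The sequence of the windows fitted their description as zinc finger clusters. Translation of the GRCm38 sequence in all reading frames found 143 arrays of at least 3 C2H2 motifs, 61 in the chromosome 2 window, 32 in the chromosome 4 window and 50 in the chromosome 12 window. The rest of these chromosomes held 35, 20 and 7. The median array had 10, 11 and 13 motifs in the 3 windows and the longest had 25. The open regions lay beside the arrays and not on them: only 8 of the 1519 regions overlapped one. The median distance to the nearest array was 11410 bp on chromosome 2, 28540 bp on chromosome 4 and 43781 bp on chromosome 12. Of the 1519 regions, 164 lay within 1000 bp of the start site of a gene with an array in its exons and are called zinc finger promoters. A further 165 lay at promoters of other genes, 530 elsewhere in genes and 660 between genes. The median share of a region's 64-base words that occur once in the genome was 44.6% on chromosome 2, 74.5% on chromosome 4 and 69.7% on chromosome 12, against 100% for the other regions of these chromosomes. The median soft-masked repeat share was 22.8% in the windows and 14.7% outside them.

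Copies of a promoter were a feature of the windows, and several regions described below are such copies, so a few are shown here. They were chosen after their values had been seen. Of the chromosome 2 zinc finger genes with a RefSeq promoter (250 bases before to 50 after the start), 31 could be compared, and the promoter most like each had a median identity of 96.1%. For the 14 promoters on chromosome 4 this was 87.6% and for the 17 on chromosome 12 it was 82.1%. The promoters of Gm14325, Gm14326, Gm14403 and Zfp970 share a stretch of 54 bases, in which capitals mark a CCAAT box, and those of Zfp980, Zfp985 and Zfp988 share 42 bases, in which capitals mark a GC box:
chromosome 2 stretch: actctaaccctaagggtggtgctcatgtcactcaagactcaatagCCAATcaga
chromosome 4 stretch: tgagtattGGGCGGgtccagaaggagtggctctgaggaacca
With up to 5 mismatches on either strand, the chromosome 2 stretch lay in 40 of the 248336 regions of the table (0.0161%), 30 of them in the chromosome 2 window and none in the chromosome 4 or 12 windows. The chromosome 4 stretch lay in 22 regions (0.0089%), all in the chromosome 4 window. The motif CCAAT, read on both strands and free to overlap other motifs, stood in 37.4% of 32851 RefSeq promoters of the same length. It stood in 17 of 17 promoters under the zinc finger promoter regions of chromosome 2, 11 of 13 on chromosome 4 and 9 of 12 on chromosome 12. GGGCGG, searched in the same way, stood in 35.7% of all promoters and in 0 of 17, 9 of 13 and 8 of 12. A match describes the letters only.

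The following 4 sequences from chromosome 2 (GRCm38, RefSeq for the promoters) are shown because they carry the 54-base stretch, exactly in Gm14325 and Zfp970 and with 1 mismatch in each of the copies between genes, and lie in regions that went different ways in the D2 background. Gm14325 is the reference and is in lower case. In the others, capitals mark bases that do not match it or have no partner in the alignment. The identity to Gm14325 was 90.9% for Zfp970, 79.5% for the copy at chr2:177277776-177278075 (minus strand) and 80.0% for the copy at chr2:177329789-177330088 (minus strand), neither of which is an annotated promoter.
Gm14325, chr2:177840287-177840586, minus strand: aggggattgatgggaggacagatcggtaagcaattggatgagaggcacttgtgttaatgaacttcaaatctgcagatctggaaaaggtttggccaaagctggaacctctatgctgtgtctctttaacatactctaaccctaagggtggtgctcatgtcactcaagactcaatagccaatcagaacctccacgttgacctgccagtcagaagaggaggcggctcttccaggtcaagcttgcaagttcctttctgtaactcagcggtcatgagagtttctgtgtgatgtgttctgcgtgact
Zfp970, chr2:177464492-177464791, plus strand: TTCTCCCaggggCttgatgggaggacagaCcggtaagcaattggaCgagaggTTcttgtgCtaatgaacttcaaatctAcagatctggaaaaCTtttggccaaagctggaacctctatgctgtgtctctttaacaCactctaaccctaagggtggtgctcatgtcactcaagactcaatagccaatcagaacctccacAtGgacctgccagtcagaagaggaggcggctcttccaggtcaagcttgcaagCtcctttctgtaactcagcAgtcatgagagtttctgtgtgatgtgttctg
copy at 177277776: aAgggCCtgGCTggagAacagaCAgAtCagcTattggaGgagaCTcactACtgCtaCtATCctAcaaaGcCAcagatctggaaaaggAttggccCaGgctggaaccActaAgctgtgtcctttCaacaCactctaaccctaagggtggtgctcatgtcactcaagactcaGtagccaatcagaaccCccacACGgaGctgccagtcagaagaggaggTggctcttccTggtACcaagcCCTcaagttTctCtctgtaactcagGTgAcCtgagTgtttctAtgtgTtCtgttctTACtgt
copy at 177329789: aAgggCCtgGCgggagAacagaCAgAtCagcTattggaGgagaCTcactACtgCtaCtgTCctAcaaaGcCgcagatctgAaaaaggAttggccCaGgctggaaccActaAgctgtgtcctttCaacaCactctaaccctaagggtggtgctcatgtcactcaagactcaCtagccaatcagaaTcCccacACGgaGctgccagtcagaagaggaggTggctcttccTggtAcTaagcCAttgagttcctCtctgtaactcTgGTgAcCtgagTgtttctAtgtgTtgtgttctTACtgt
On chromosome 4, the promoters of Zfp988 (reference), Zfp980 and Zfp985 are shown because they hold the 42-base stretch exactly and 14 of the 21 tested regions with the stretch were lower in both background comparisons described below. The region at Zfp982, also described below, holds it exactly too and is not shown. For Zfp980 and Zfp985 the alignment to Zfp988 is marked. Their identity to Zfp988 was 77.0% and 74.6%, and capitals again mark bases without a match. For promoters, the identities count as mismatches the end bases that have no partner because the annotated start sites are shifted. The capitals that end Zfp980 and Zfp985 are such bases. The chromosome 2 copies between genes were cut to line up with Gm14325 at the stretch, so their identities are not on the same footing.
Zfp988, chr4:147305354-147305653, plus strand: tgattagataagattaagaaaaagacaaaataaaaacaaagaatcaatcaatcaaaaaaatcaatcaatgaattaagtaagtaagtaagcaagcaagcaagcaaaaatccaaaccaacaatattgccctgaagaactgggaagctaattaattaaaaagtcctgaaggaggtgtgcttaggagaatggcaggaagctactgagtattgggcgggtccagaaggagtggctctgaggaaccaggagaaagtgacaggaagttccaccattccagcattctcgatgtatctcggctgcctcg
Zfp980, chr4:145670447-145670746, plus strand: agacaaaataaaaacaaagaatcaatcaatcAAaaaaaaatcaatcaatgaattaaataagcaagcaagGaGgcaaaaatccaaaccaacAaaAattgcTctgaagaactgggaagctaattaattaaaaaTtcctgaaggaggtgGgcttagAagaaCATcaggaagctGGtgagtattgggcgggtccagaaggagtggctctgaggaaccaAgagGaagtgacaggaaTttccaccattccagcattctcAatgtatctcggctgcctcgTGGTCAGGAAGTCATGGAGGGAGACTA
Zfp985, chr4:147553027-147553326, plus strand: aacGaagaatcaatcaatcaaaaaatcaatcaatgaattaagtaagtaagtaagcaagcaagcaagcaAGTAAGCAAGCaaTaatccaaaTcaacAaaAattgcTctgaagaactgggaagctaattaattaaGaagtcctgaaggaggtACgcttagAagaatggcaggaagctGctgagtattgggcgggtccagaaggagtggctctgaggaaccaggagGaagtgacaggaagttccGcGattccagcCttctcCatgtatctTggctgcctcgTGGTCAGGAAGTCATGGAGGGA

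Total counts ran from 15198496 to 43042955 per library. A limit of 3 counts, as a count of 0 allows, is 0.0697 to 0.197 CPM, the count scaled to library size, which covers counting error only. The 10 embryonic stem cell markers all had an open promoter region, with summed normalised CPM of 374 to 391 in B6, 367 to 389 in B6-13D2, 369 to 404 in D2 and 285 to 353 in D2-13B6. The 7 fibroblast markers with a region summed to 66.5 to 81.9 in the B6 background, 94.2 to 96.2 in D2 and 123 to 167 in D2-13B6. In D2-13B6 against B6, 7 of 10 stem cell marker promoters were lower and 2 higher, and 4 of 7 fibroblast marker promoters were higher (edgeR, adjusted p under 0.05). Of all regions tested, 20.1% were lower and 21.6% higher. Pdgfra, which is also a primitive endoderm marker, had the highest value of the fibroblast markers in D2-13B6 (36.6 CPM) and in B6 (25.5 CPM). Of the 5 primitive endoderm marker promoters, 2 were higher and 1 lower in D2-13B6 against B6, with a median log2 fold change of -0.12. Of the 4 neural ones 0 were called. The values of D2-13B6 stand beside this shift of stem cell and fibroblast marker promoters, whose part in the results was not tested. Comparisons of D2 with B6 and with B6-13D2 do not contrast that line, although all 11 libraries share 1 fit. In D2 against B6-13D2, 3 of 7 fibroblast marker promoters and 2 of 10 stem cell marker promoters were higher, where 11.6% of all regions were. In D2 against B6, 2 of 7 fibroblast marker promoters were higher and 1 of 10 stem cell marker promoters was lower. Of all regions, 13.7% were higher and 8.8% lower in that comparison.

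Of the 1519 regions, 1422 had enough counts to be tested and 97 did not. The untested regions were 55 on chromosome 2, 22 on chromosome 4 and 20 on chromosome 12. In 61 of them, 48 on chromosome 2 and 13 on chromosome 4, no library had a single count, and none of these 61 holds a 64-base word that occurs once in the genome. Between 175.5 and 176.5 Mb of chromosome 2, a stretch with 15 zinc finger arrays and 30 regions in the table, every region had 0 counts in all 11 libraries. The promoters of Gm14288, Gm6710 and 2210418O10Rik lie there. A count of 0 in such copied sequence shows no closed chromatin, since what was done with multi-mapping reads is not given in the sources used here.

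The windows as a whole held fewer of the counts in the D2 background. In bulk libraries like these, fewer cells with an open region and less opening per cell cannot be told apart. Their share of all counts was 0.543 ± 0.0075% (SD, n = 3) for B6 and 0.556 ± 0.0079% (n = 2) for B6-13D2, against 0.430 ± 0.012% (n = 3) for D2 and 0.356 ± 0.0083% (n = 3) for D2-13B6. In the chromosome 2 window the shares were 0.0689, 0.0760 and 0.0745% in B6, 0.0761 and 0.0828% in B6-13D2, 0.0591, 0.0570 and 0.0536% in D2 and 0.0365, 0.0436 and 0.0385% in D2-13B6. No library of the B6 background overlapped one of the D2 background. The chromosome 4 shares were 0.220, 0.223 and 0.219% in B6, 0.243 and 0.234% in B6-13D2, 0.173, 0.173 and 0.169% in D2 and 0.134, 0.124 and 0.143% in D2-13B6. On chromosome 12 they were 0.246, 0.251 and 0.251% in B6, 0.231 and 0.244% in B6-13D2, 0.209, 0.200 and 0.195% in D2 and 0.182, 0.183 and 0.184% in D2-13B6. In these windows too the backgrounds did not overlap in share of total counts. On that scale D2-13B6 was the lowest line in every window. These shares leave out the TMM library factors behind the normalised CPM, which ran from 0.769 (D2-13B6 replicate 2) to 1.10 (B6 replicate 1). With those factors the backgrounds overlap on chromosome 12. There D2-13B6 replicate 2 had 78451 counts over an effective size of 32999908, and B6 replicate 1 had 67186 over 30059513. The same D2-13B6 library was also above every D2 library there, of which replicate 1 was the highest with 82940 over 38548777. The rank of D2-13B6 under D2 on chromosome 12 therefore depends on the scale. Without the factors, the share in D2 was 0.774, 0.779 and 0.806 times that in B6 on chromosomes 2, 4 and 12. In D2-13B6 it was 0.540, 0.605 and 0.733 times. On the scale of total counts the median region of the whole table also fell, more so in D2-13B6. Its log2 fold change was -0.14 in D2 against B6 and -0.43 in D2-13B6 against B6, where the median over the windows was -0.46 and -0.94. Each of the 9 comparisons of 3 with 3 libraries had p = 0.1 in an exact two-sided permutation test (adjusted p = 0.1 over the 9), which is the smallest p this design can give. The reference genome is that of C57BL/6J, so a less accessible copy, a copy absent or duplicated in DBA/2J, and a copy to which DBA/2J reads align less well cannot be told apart in these counts.

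**Figure D1:**
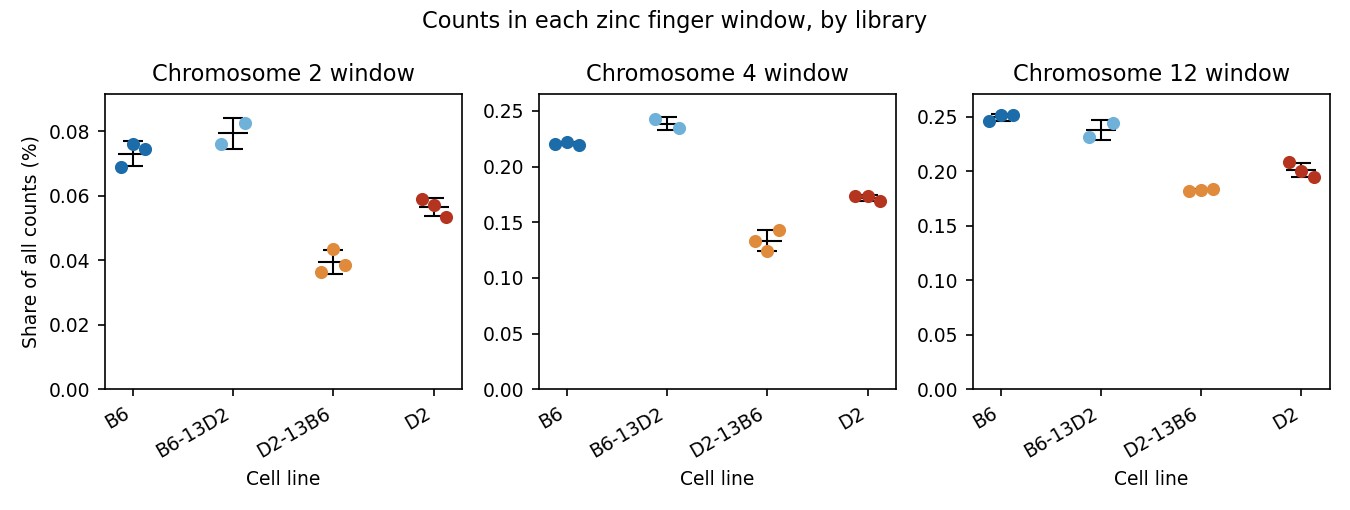
Share of all counts that fell in each window (%, vertical axis, from 0) by cell line. Each point is a library and the bars give the mean and SD. As shares of total counts, without TMM factors, the 5 libraries of B6 and B6-13D2 lie above the 6 of D2-13B6 and D2 in all 3 windows.

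Region by region, the D2 background was lower far more often than higher. In D2-13B6 against B6, 787 of 1422 regions were called (edgeR, adjusted p under 0.05), 141 higher and 646 lower. Of all 246840 regions tested, 41.7% were called, 21.6% higher and 20.1% lower. In D2 against B6-13D2, which shares no library with the first comparison, 629 were called, 149 higher and 480 lower, where 18.8% of all regions were called, 11.6% higher and 7.24% lower. D2 against B6 gave 671, of which 163 were higher and 508 lower (22.5% of all regions, 13.7% higher and 8.8% lower). In the first 2 comparisons together, 436 regions of the windows (30.7%) were lower in both and 81 (5.70%) higher in both, where 5.38% and 10% of all regions were, and 3 were called with opposite signs. The median log2 fold change was -0.64 in D2-13B6 against B6, -0.37 in D2 against B6-13D2 and -0.34 in D2 against B6, and over all regions it was -0.13, -0.00 and -0.01. In 185 regions the decrease was at least 4-fold in both comparisons, as in 0.702% of all regions. Normalised CPM of the 5 B6 background and the 6 D2 background libraries did not overlap in 475 regions that were lower in the D2 background and 98 that were higher (8.74% and 13% of all regions).

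The 3 windows differed in how much of them moved. On chromosome 4, 200 of 463 tested regions were lower in both comparisons and 30 higher, with medians of -0.83 and -0.65. On chromosome 12, 201 of 778 were lower and 48 higher, with medians of -0.46 and -0.30. On chromosome 2, 35 of 181 were lower and 3 higher, with medians of -0.72 and -0.30. As a description over the 1422 regions, which are not independent and share each library's depth, log2 CPM had a mean Pearson correlation of 0.936 between B6 libraries, 0.923 between B6 and B6-13D2, 0.929 between D2-13B6 and D2 and 0.726 between B6 and D2.

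**Figure D2:**
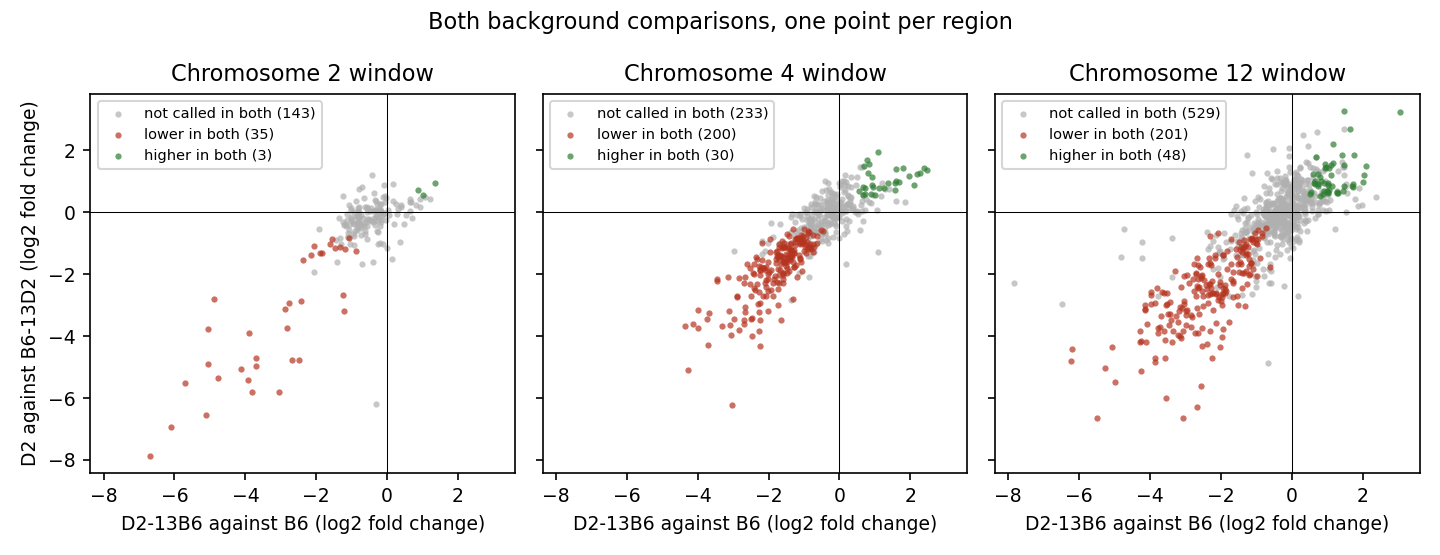
Log2 fold change of each tested region in D2-13B6 against B6 (horizontal) and in D2 against B6-13D2 (vertical), which share no library; red and green points were called in both. On chromosome 4, 200 red points and 30 green points stand beside 233 grey ones, and on chromosome 2 there are 35 red and 3 green points.

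Decreases were unevenly spread along the windows. Stretches of at least 3 neighbouring tested regions that were at least 2-fold lower in both comparisons numbered 3 on chromosome 2, 19 on chromosome 4 and 20 on chromosome 12. Neighbouring means next in order at any distance, and the longest stretch, on chromosome 12, spanned 213.6 kb with 5 regions. Such stretches were not counted outside the windows. How many would arise from 436 of 1422 regions being lower was not tested. On chromosome 2 they lay between positions 177249130 and 177523514, and in the 0.5 Mb from 177.0 Mb 21 of 48 tested regions were lower in both comparisons and 0 were higher (0 also at an unadjusted p under 0.05 and by DESeq2). The longest stretch there ran from 177318538 to 177402161 with 12 regions, among them the promoters of Gm14412 and Gm14418. Its summed normalised CPM was 69.5, 79.4 and 79.0 in B6, 77.6 and 86.7 in B6-13D2, 9.12, 12.3 and 8.43 in D2-13B6 and 10.2, 9.56 and 10.2 in D2. The stretch, of 83.6 kb, was chosen for being lower in both comparisons, so the order of the backgrounds is fixed by the choice.

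On chromosome 4 the 0.5 Mb from 147.0 Mb held the most decreases, with 68 of 99 tested regions lower and 0 higher (0 also at an unadjusted p under 0.05 and by DESeq2). One stretch at 147103743 to 147141158 held 11 regions at Zfp978 and Zfp991. Its summed CPM was 62.0, 68.1 and 59.8 in B6, 74.2 and 72.6 in B6-13D2, 18.2, 18.9 and 18.1 in D2-13B6 and 17.0, 16.2 and 19.5 in D2, where the split by background is again fixed by the choice. The B6-13D2 libraries were above all B6 libraries in this stretch. The outer part of the same window behaved differently: in the 0.5 Mb from 145.0 Mb, which holds 2 arrays, 3 of 96 regions were lower and 18 higher. On chromosome 12, 29 of 43 tested regions in the 0.5 Mb from 20.5 Mb were lower and 0 higher (0 at an unadjusted p under 0.05 and by DESeq2), with a median log2 fold change of -1.88 in D2-13B6 against B6. The next 0.5 Mb, with 1 array, had 0 lower and 10 higher of 87 (2 lower at an unadjusted p under 0.05 and 0 by DESeq2). Of all regions tested, 5.38% were lower and 10% higher in both comparisons, so the increases there were near the share of the whole table.

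**Figure D3:**
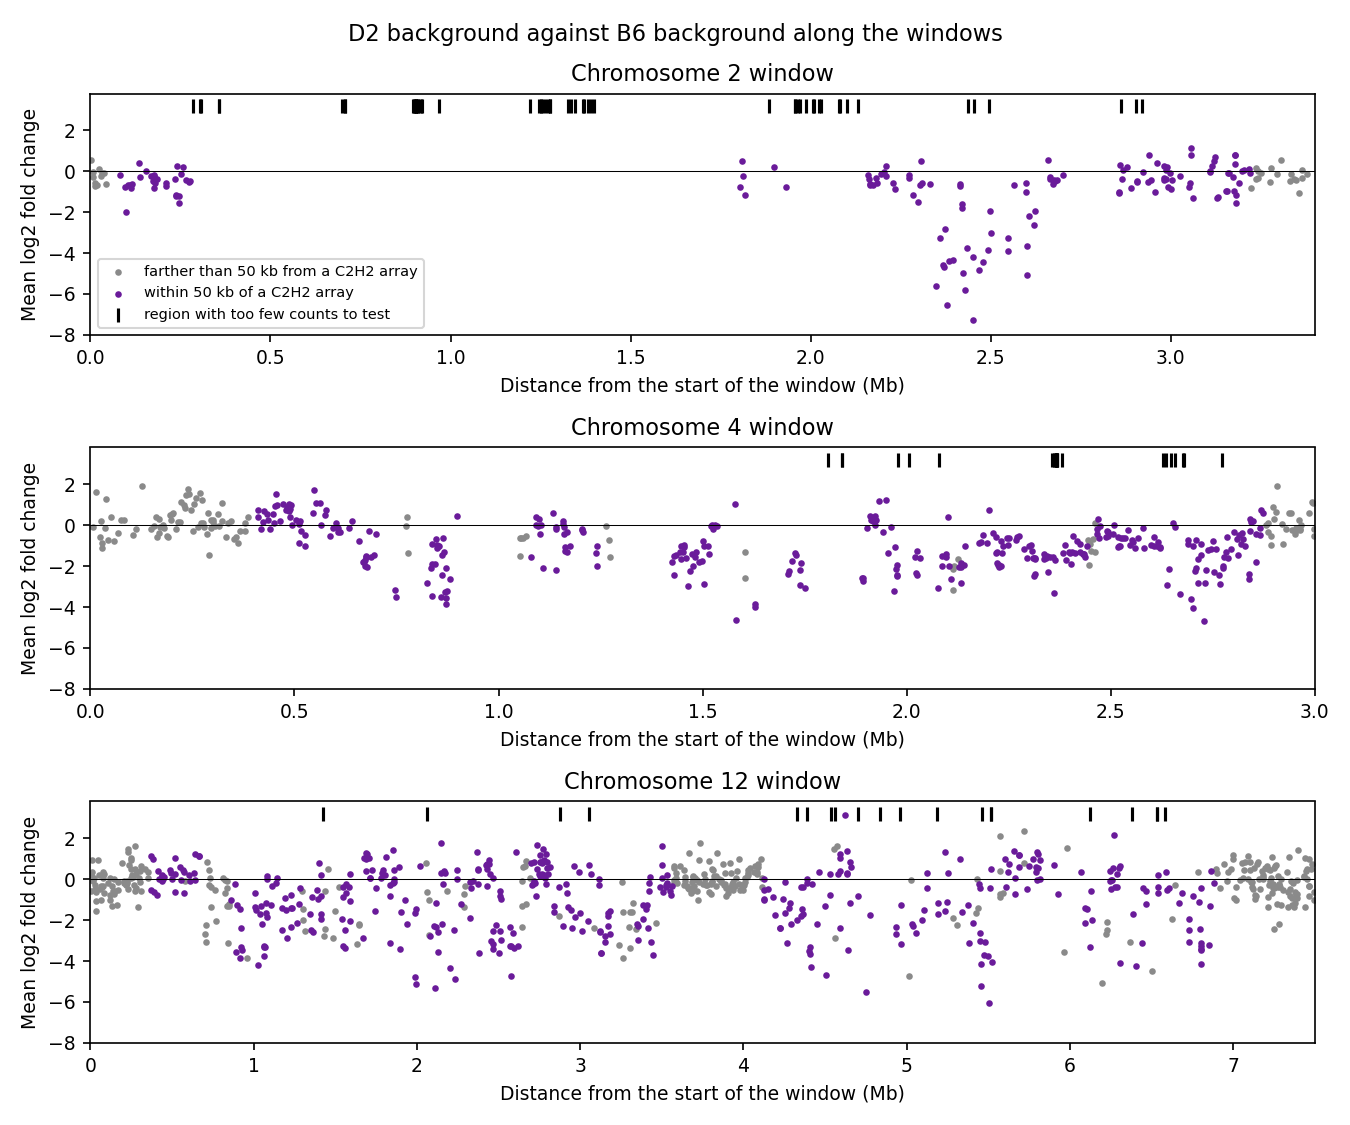
Mean of the 2 log2 fold changes of each tested region along each window (Mb from the window's start), in purple within 50 kb of a C2H2 array and grey farther away; black ticks are the 55, 22 and 20 untested regions. Decreases are unevenly spread, and on chromosome 2 the untested regions crowd where no library had a count.

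The regions described next were chosen in each window by the smallest p among those called in both background comparisons without overlap between backgrounds, and not by the size of the change. Among them were copies of promoters. On chromosome 2, chr2:177277294-177278309 lies between genes, 10258 bp from the start of Gm14409, and holds the first of the shown copies. Its normalised CPM was 16.8, 19.3 and 20.6 in B6, 19.5 and 21.5 in B6-13D2, 0.156, 0.333 and 0.344 in D2-13B6 and 0.156, 0.214 and 0.115 in D2. It was open in every library of the B6 background and at or under 0.344 CPM in every library of the D2 background. The log2 fold change was -6.11 ± 0.25 (SE) in D2-13B6 against B6 and -6.94 ± 0.27 in D2 against B6-13D2 (edgeR adjusted p = 1.21e-29 and 1.16e-30). The second copy lies in chr2:177329271-177330671, 4964 bp from the start of Gm14412. It had 23.6, 25.3 and 25 CPM in B6, 23.7 and 27.6 in B6-13D2, 0.416, 1.12 and 0.619 in D2-13B6 and 0.156, 0.321 and 0.344 in D2. Here the 2 D2 background lines also did not overlap each other. Fold changes were -5.11 ± 0.23 and -6.54 ± 0.27 on the log2 scale (edgeR adjusted p = 1.51e-27 and 7.39e-30). The promoter of Gm14412 itself, chr2:177323991-177325111, had 9.38, 11.9 and 12.3 CPM in B6, 13.5 and 15.2 in B6-13D2, 0.234, 0.303 and 0.481 in D2-13B6 and 0.259, 0.562 and 0.630 in D2. It too was split by background without overlap, with log2 fold changes of -5.06 ± 0.26 and -4.89 ± 0.25 (edgeR adjusted p = 1.68e-24 and 7.55e-25).

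Of the 9 tested regions with an exact copy of the stretch, 2 were higher in both comparisons and 1 was lower. The Gm14325 promoter (chr2:177839939-177840787), printed above, had 9.65, 9.88 and 11.6 CPM in B6, 11.4 and 12 in B6-13D2, 18.7, 27.3 and 16.3 in D2-13B6 and 18.2, 17.4 and 15.6 in D2. All D2 background libraries were above all B6 background libraries. The log2 fold change was 1.00 ± 0.18 and 0.55 ± 0.20 in the 2 comparisons (edgeR adjusted p = 2.19e-06 and 0.0419). The Gm14326 promoter, chr2:177956783-177957603, had 9.02, 10.3 and 12.5 CPM in B6, 9.01 and 10.4 in B6-13D2, 16.4, 29.4 and 12.5 in D2-13B6 and 17.8, 14.4 and 15.3 in D2. Its lowest D2-13B6 library was just above the highest B6 library, and the changes were 0.88 ± 0.19 and 0.71 ± 0.22 (edgeR adjusted p = 0.000126 and 0.0151). A smaller region in an intron of Gm14326 (chr2:177956391-177956664) changed by 1.36 ± 0.25 and 0.93 ± 0.30 (adjusted p = 5.16e-06 and 0.0206). These are the only 3 chromosome 2 regions higher in both comparisons, and their calls in D2 against B6-13D2 are weak: DESeq2 kept 1 of the 3, and none of the 3 was kept without either B6-13D2 library.

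Over all 30 chromosome 2 members with the stretch, 18 were tested. Of the 12 others, 10 had no count in any library, and none of the 12 holds a unique 64-base word. In D2-13B6 against B6, 10 of the 18 were lower and 5 higher, and in both background comparisons 4 were lower and 2 higher, with medians of -0.64 and -0.21. Among the exact copies, Zfp970 was also lower in D2 against B6-13D2 (-1.52) and is described with the interval. Gm14418 (chr2:177397857-177398881) had 7.45, 9.57 and 10.3 CPM in B6, 10.5 and 11.4 in B6-13D2, 3.56, 6.03 and 1.86 in D2-13B6 and 1.97, 1.69 and 1.46 in D2. Both background comparisons were lower, at -1.24 and -2.67. Gm14403 fell by 1.62 in D2 against B6-13D2 but was not called in D2-13B6 against B6 (-0.39, adjusted p = 0.0621).

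**Figure D4:**
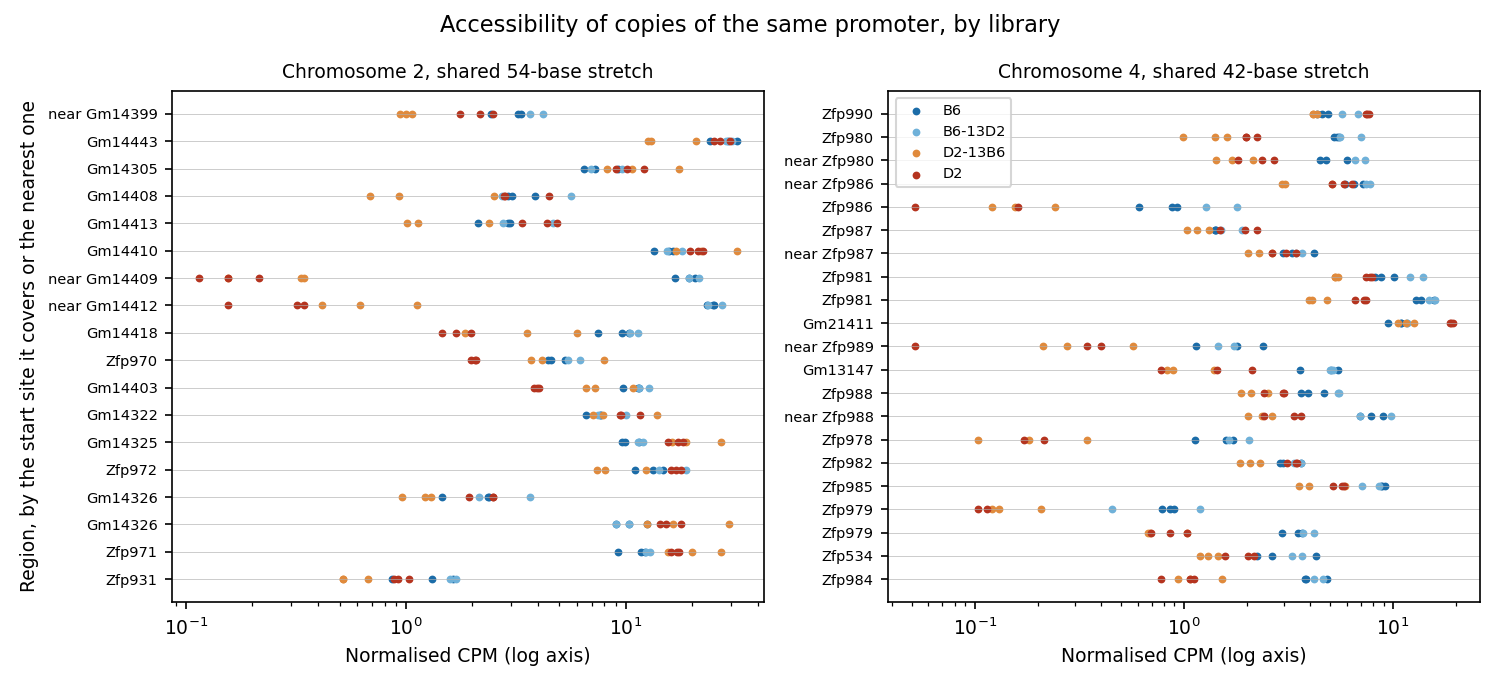
Normalised CPM (log axis) in each of the 11 libraries for the tested regions that hold the 54-base stretch of chromosome 2 (left, 18 regions) or the 42-base stretch of chromosome 4 (right, 21 regions), in genome order from the top. Left, D2 background points lie on both sides of the B6 background points; right, they lie mostly to the left of them.

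The chromosome 4 copies were lower more often than higher. Of the 22 regions with the 42-base stretch, 21 were tested and the other had too few counts. In both background comparisons 14 were lower and 0 higher (0 also at an unadjusted p under 0.05 and by DESeq2), with medians of -1.55 and -1.11. In D2 against B6-13D2 alone, 14 were lower and 1 higher, and in D2 against B6 14 were lower and 2 higher. The region higher in D2 against B6-13D2 lies at the start of Gm21411 and changed by 0.71 (edgeR adjusted p = 0.00369). Zfp980 (chr4:145670390-145671002) had 5.52, 5.37 and 5.21 CPM in B6, 5.59 and 7.03 in B6-13D2, 0.987, 1.61 and 1.41 in D2-13B6 and 2.23, 1.98 and 1.98 in D2, with no overlap. Zfp988 (chr4:147305110-147305999) had 4.66, 3.90 and 3.63 CPM in B6, 5.46 and 5.53 in B6-13D2, 1.87, 2.52 and 2.10 in D2-13B6 and 2.41, 3.00 and 2.98 in D2. The backgrounds were apart there as well, with log2 fold changes of -0.92 and -0.97. For Zfp985 (chr4:147552661-147553832) CPM was 8.78, 9.15 and 8.84 in B6, 8.55 and 7.13 in B6-13D2, 5.87, 3.97 and 3.54 in D2-13B6 and 5.71, 5.84 and 5.19 in D2. Its change was called in D2-13B6 against B6 (-0.99) and not in D2 against B6-13D2 (-0.49, edgeR adjusted p = 0.0781), although the groups did not overlap. The region at the start of Zfp982 (chr4:147492003-147492815) also holds the stretch exactly. It was lower in D2-13B6 against B6 (-0.61, edgeR adjusted p = 0.0192) and was not called in D2 against B6-13D2 (-0.07, edgeR adjusted p = 0.887).

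Zinc finger promoters as a class followed the same division between chromosomes. On chromosome 4, 40 of 73 tested regions at the start sites of 26 zinc finger genes were lower in both background comparisons and 0 were higher (0 also at an unadjusted p under 0.05 and by DESeq2). On chromosome 2 it was 6 lower and 3 higher of 44, at 19 genes, and on chromosome 12 it was 8 lower and 2 higher of 26, at 17 genes. At zinc finger promoters on the rest of these 3 chromosomes 5 of 114 were lower and 20 higher. The genes with a lower promoter on chromosome 4 included Zfp978, Zfp981, Zfp984, Zfp991, Zfp992, Rex2 and Zfp534, all of the C2H2 class. Start sites of Zfp978 are annotated at more than 1 place. The region at chr4:147124238-147125843 had mean CPM of 22.3 in B6 and 26.5 in B6-13D2, against 8.33 in D2-13B6 and 7.05 in D2. Another at chr4:147360507-147361713, with 9.70% unique 64-base words, changed by -2.83 and -3.81 in the 2 background comparisons. At the outer end of the cluster, Zfp933 had 1 lower region and another (chr4:147847897-147849223) with means of 7.36 in B6 and 7.5 in B6-13D2, and of 9.92 in D2-13B6 and 7.47 in D2. It was higher in D2-13B6 against B6 (0.44, edgeR adjusted p = 0.0364) and was not called in D2 against B6-13D2 (-0.01, adjusted p = 0.988).

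The 3 chromosome 4 decreases with the smallest p lay in introns and at a predicted gene. Within Zfp534, the intronic region chr4:147695272-147698198 had 6.39, 9.64 and 7.66 CPM in B6, 7.55 and 9.52 in B6-13D2, 0.494, 0.636 and 0.619 in D2-13B6 and 0.726, 0.723 and 0.860 in D2. The 2 backgrounds were an order of magnitude apart, with log2 fold changes of -3.75 ± 0.24 and -3.47 ± 0.24 (edgeR adjusted p = 4.28e-20 and 2.35e-18). Near the start of the predicted gene Gm13244, chr4:145744865-145745589 had 8.82, 7.99 and 10.7 CPM in B6, 9.10 and 9.57 in B6-13D2, 1.04, 2.12 and 1.10 in D2-13B6 and 0.493, 0.830 and 0.946 in D2. It was lowest in D2, and the changes were -2.69 ± 0.22 and -3.63 ± 0.25 (adjusted p = 1.67e-16 and 2.35e-18). The Gm26573 intron held chr4:146430296-146431342, which changed by -2.53 ± 0.19 and -2.32 ± 0.20 (edgeR adjusted p = 1.17e-17 and 1.88e-14), with 10.6 to 14.6 CPM in the B6 background and 1.85 to 3.44 in the D2 background.

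On chromosome 12 the 3 decreases with the smallest p lay in introns of Riken transcripts and between genes. In an intron of 2410018L13Rik, chr12:23001426-23002640 had 15.8, 18.8 and 20.1 CPM in B6, 16.1 and 17.0 in B6-13D2, 0.286, 0.515 and 0.413 in D2-13B6 and 0.156, 0.107 and 0.229 in D2. The D2 background was at or under 0.515 CPM in every library, and the log2 fold changes were -5.50 and -6.63. The region chr12:18523468-18525090, intronic in 5730507C01Rik, had 12.3, 15.9 and 14.3 CPM in B6, 14.1 and 16.1 in B6-13D2, 0.546, 0.788 and 0.894 in D2-13B6 and 0.986, 0.964 and 0.573 in D2. Its changes were -4.27 ± 0.22 and -4.16 ± 0.23 (edgeR adjusted p = 2.97e-24 and 1.28e-23). The promoter of this gene (chr12:18513726-18515746) was less affected, with means of 25.1 in B6 and 26 in B6-13D2, against 12.8 in D2-13B6 and 6.24 in D2. Between genes, chr12:22952600-22953575 had 5.91 to 8.05 CPM in the B6 background and 0.052 to 0.394 in the D2 background, a change of -4.99 ± 0.29 and -5.48 ± 0.33 (adjusted p = 9.22e-22 and 4.24e-21).

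On chromosome 12, 48 of 778 tested members rose in both comparisons, a smaller share than the 10% of all regions that did. At the predicted gene Gm47385, chr12:23189523-23190173 had 8.48, 5.73 and 6.74 CPM in B6, 8.23 and 8.07 in B6-13D2, 16.5, 19.4 and 9.97 in D2-13B6 and 20.9, 17.1 and 18.5 in D2, with no overlap. It changed by 1.12 ± 0.19 and 1.21 ± 0.21 (edgeR adjusted p = 7.89e-07 and 1.46e-05). In an intron of Gm49692, chr12:20271029-20271780 rose from 0.854 to 1.93 CPM in the B6 background to 3.21 to 4.78 in the D2 background, with changes of 1.47 ± 0.24 and 1.51 ± 0.28. The zinc finger promoter of Gm9222 (chr12:17881017-17883259), at the edge of the window, rose from means of 21.9 in B6 and 23.8 in B6-13D2 to 53.4 in D2-13B6 and 37.7 in D2. The zinc finger promoter of Gm40847 (chr12:18852354-18855004) fell, from 12.1 and 8.88 to 1.57 and 2.17.

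The windows also hold genes without an array in their exons, and 25 of the 81 regions higher in both comparisons lay at their promoters. The class is set by arrays alone. It includes the starts of Zfp972, Gm14408, Gm14402, Gm14413 and Gm21411, whose regions carry a shared promoter stretch. At promoters of other genes, 43 of 161 tested regions were lower in both background comparisons and 25 higher. On the rest of the 3 chromosomes 296 of 6311 were lower and 1151 higher. The higher ones included Odc1, which encodes ornithine decarboxylase of polyamine synthesis (means of 19.3 in B6 and 18.3 in B6-13D2, against 39.1 in D2-13B6 and 33.4 in D2), and the transcription factor gene Klf11 (29.8, 30.2, 60.9 and 47.3). Grhl1, Ywhaq, Adam17, Hpcal1 and the region shared by Fv1, a restriction gene against murine leukaemia viruses, and Miip also rose in both. Close to Mfn2, which encodes a GTPase of mitochondrial fusion, chr4:147906112-147906899 had 5.82, 6.77 and 7.88 CPM in B6, 5.87 and 5.63 in B6-13D2, 30.9, 45.4 and 29.5 in D2-13B6 and 15.3, 15.7 and 15.2 in D2. Both D2 background lines were higher and D2-13B6 was the highest, with changes of 2.37 ± 0.18 and 1.42 ± 0.21 (edgeR adjusted p = 1.34e-17 and 4.41e-07). In an intron of the TNF receptor gene Tnfrsf1b, chr4:145240705-145241327 had 3.53, 3.72 and 3.63 CPM in B6, 2.68 and 2.39 in B6-13D2, 10.7, 14 and 8.29 in D2-13B6 and 6.87, 7.90 and 5.42 in D2, and changed by 1.60 ± 0.19 and 1.4 ± 0.23. The neighbouring Tnfrsf8, of the same receptor family, had an exonic region (chr4:145267543-145268232) that changed by 1.95 ± 0.19 and 1.16 ± 0.22. In an intron of Asap2, which encodes an Arf GTPase-activating protein, chr12:21234570-21235003 changed by 2.09 ± 0.22 and 1.49 ± 0.26. Every 64-base word of these last 4 regions occurs once in the genome.

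The direction of change moved with how unique the sequence was. Among tested regions of the windows with over 10 to 50% unique 64-base words, 150 of 379 (39.6%) were lower in both background comparisons and 11 higher. With over 50 to 90% it was 209 of 538 (38.8%) and 25, and with over 90% it was 68 of 471 (14.4%) and 44. On chromosome 4 the lower share was 68.0%, 53.3% and 16.8% in these classes. On the rest of the 3 chromosomes it was 21.4%, 11.7% and 5.06%. It moved with distance as well: within 50 kb of a C2H2 array 361 of 916 regions (39.4%) were lower, and farther away 75 of 506 (14.8%). Of the regions over 90% unique, 33 of 106 (31.1%) were lower and 6 higher within 50 kb of an array, and 35 of 365 (9.59%) were lower and 38 higher farther away. The repeat share did not separate the regions in this way: 30.9% of regions under 50% soft-masked and 30.1% of the others were lower. The part that alignment to copied sequence plays in these counts was not tested.

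**Figure D5:**
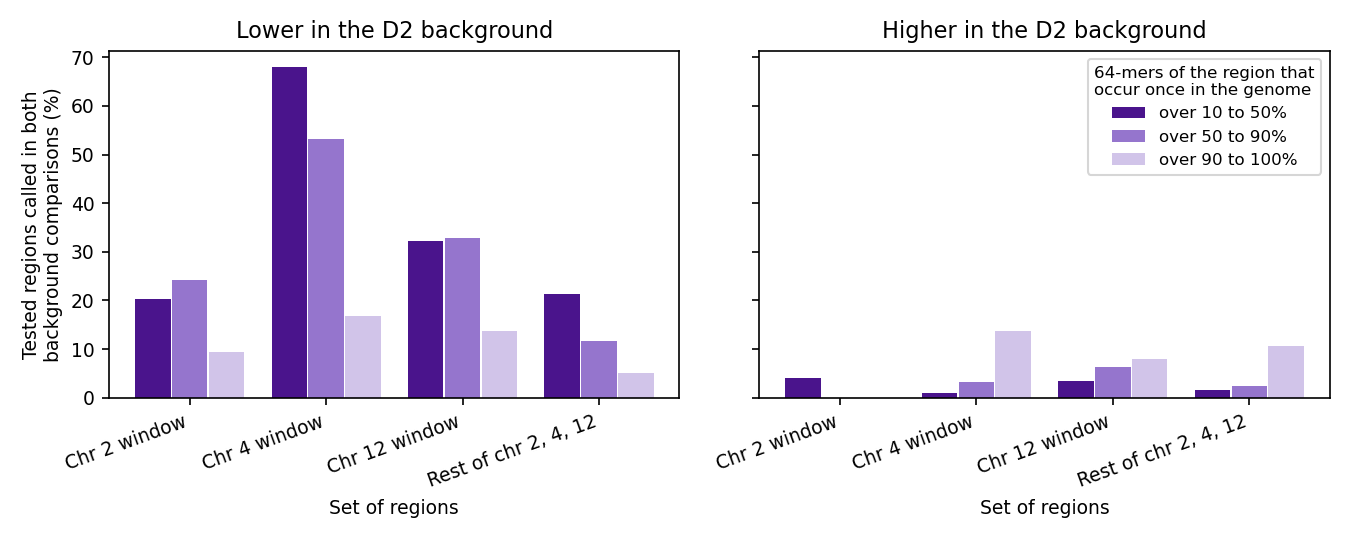
Share of tested regions called lower (left) or higher (right) in both background comparisons (%, vertical axis, from 0), by window and by the share of a region's 64-base words that occur once in the genome; regions at or under 10% are not drawn. On chromosome 4 the lower share is 68.0% in the darkest bar and 16.8% in the lightest.

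Comparisons across the chromosome 13 interval gave few calls in the windows on the B6 background, at a share near that of the whole table. In B6-13D2 against B6, 5 of 1422 regions were called, all 5 lower (edgeR; 60 higher and 69 lower at an unadjusted p under 0.05, and 0 higher and 5 lower by DESeq2), where 0.474% of all regions were called, 0.139% higher and 0.335% lower. In D2 against D2-13B6 287 were called, 182 higher and 105 lower (23.7% of all regions, 8.53% higher and 15.2% lower), with a median of 0.18 against 0.04 over all regions. Both comparisons put the line with the D2 interval first and share no library, and 1 region was called with the same sign in both, where 0.194% of all regions were. The shift of stem cell and fibroblast marker promoters in D2-13B6 lies on one side of the second comparison only: in D2 against D2-13B6, 7 of 10 stem cell marker promoters were higher and 5 of 7 fibroblast marker promoters lower.

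The region called in both, chr12:20842829-20845822, lies between genes, 27050 bp from 1700030C10Rik. It had 11.6, 12.4 and 10.3 CPM in B6, 4.64 and 5.63 in B6-13D2, 1.51, 2.73 and 2.37 in D2-13B6 and 0.649, 1.02 and 1.12 in D2. No 2 of the 4 lines overlapped. The log2 fold change was -1.15 ± 0.22 in B6-13D2 against B6 and -1.24 ± 0.24 in D2 against D2-13B6 (edgeR adjusted p = 0.00136 and 3.54e-05), and the first call was lost without B6-13D2 replicate 1. The other intergenic region with a strong call on the B6 background, chr12:19143645-19144248, had 2.43, 3.72 and 2.71 CPM in B6, 0.910 and 0.947 in B6-13D2, 0.39, 0.455 and 0.550 in D2-13B6 and 0.285, 0.375 and 0.172 in D2 (-1.65 ± 0.36, adjusted p = 0.00844). On the D2 background, chr12:18162570-18163570 was lower in D2 than in D2-13B6 (-1.61 ± 0.21, edgeR adjusted p = 2.64e-08), at 1.63, 2.01 and 1.60 CPM against 4.68, 5.94 and 5.47. Near Gm13034, chr4:146066675-146068114 was higher, at 38.3, 27.4 and 32.3 CPM in D2 against 14.2, 17.6 and 10.8 in D2-13B6 (1.20 ± 0.17, adjusted p = 1.5e-07), while B6 had 27.7, 25.7 and 26.2 and B6-13D2 36.4 and 34.9. In that region D2-13B6 stood apart from the 3 other lines.

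The effect of the interval differed between backgrounds at 72 of 1422 regions, 30 with a positive and 42 with a negative difference (6.54% of all regions, 4.55% and 1.99%). The count and the balance are unstable: leaving out 1 library gave 21 to 129 regions, the lowest without B6-13D2 replicate 1 and the highest without D2-13B6 replicate 3, RLE size factors gave 35 positive and 30 negative, and total counts gave 25 and 93. The difference is the interval's log2 effect on the B6 background minus that on the D2 background. The Zfp970 promoter, chr2:177464513-177465216, had 4.59, 4.45 and 5.30 CPM in B6, 5.46 and 6.23 in B6-13D2, 4.18, 7.97 and 3.71 in D2-13B6 and 2.08, 2.06 and 1.98 in D2. D2 alone was low, and the difference was 1.66 ± 0.32 (edgeR adjusted p = 0.00096). Between genes, chr12:23789939-23791918 had 4.26, 4.21 and 3.90 CPM in B6, 2.18 and 2.79 in B6-13D2, 2.55, 3.42 and 2.41 in D2-13B6 and 6.43, 4.69 and 4.33 in D2. B6-13D2 was under B6 and D2 was over D2-13B6 in every library, a difference of -1.61 ± 0.32 (adjusted p = 0.00136). At the start of Gm10479 and Gm5953, chr12:19291597-19293272 had 27.6, 21.8 and 24.2 CPM in D2 and 9.77 to 13.8 in all other libraries (difference -1.22 ± 0.26, adjusted p = 0.00275).

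The partners through which KRAB zinc finger proteins act were tested at their promoters. Of 36 genes on a list of KRAB cofactors, heterochromatin factors and a few KRAB zinc finger proteins, 35 had a promoter region. In D2-13B6 against B6 25 were higher and 1 lower, where 21.6% of all regions were higher. In D2 against B6-13D2 10 were called, and these 10 were higher in both, as were 10% of all regions and 1151 of the 6311 promoter regions of other genes on the rest of the 3 chromosomes: Atf7ip, Resf1, Cbx3, Dnmt1, Suv39h1, Suv39h2, Mphosph8, Morc2a, Kdm1a and Hdac2. Cbx3 encodes an HP1 protein, Atf7ip a partner of SETDB1 and Suv39h1 and Suv39h2 H3K9 methyltransferases. The region at Trim28 had means of 70.8 CPM in B6 and 72.5 in B6-13D2, against 54.4 in D2-13B6 and 60.8 in D2 and was called in neither comparison (-0.38 and -0.25, edgeR adjusted p = 0.0619 and 0.392). The median log2 fold change of the 35 regions was 0.57 and 0.38 in the 2 comparisons, against -0.13 and -0.00 over all regions. The 21.6% and the last 2 medians are over regions of all kinds, not promoters alone. Promoters of other genes on the rest of the 3 chromosomes were higher in both comparisons more often than all regions were. How far the list stands apart from other promoters was not tested.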

How the data were processed

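ATAC-seq was done on 4 mouse embryonic stem cell lines in 11 libraries. The deposited table holds whole-number read counts per region with duplicates and mitochondrial reads removed, per the file headers. Trimmomatic 0.39, BWA 0.7.5, Picard 2.0.1, MACS 1.4.2, bedtools 2.9.2, edgeR 3.34.1 and the mm10 build are named, per the submitters' processing notes, and how reads that map to several places were treated is not given in the sources used here.

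Groups came from the sample titles. Counts were tested with edgeR 4.0.16 (R 4.3.3, filterByExpr, TMM, robust quasi-likelihood fit over all 11 libraries), with Benjamini-Hochberg adjustment over all 246840 regions tested and a threshold of 0.05. Fold changes are on the log2 scale. CPM are counts scaled to the TMM-adjusted library total, as edgeR gives them. D2-13B6 against B6 and D2 against B6-13D2 share no library and are read together for the background, and B6-13D2 against B6 and D2 against D2-13B6 likewise for the interval. Zinc finger genes are GENCODE M21 or RefSeq genes with an exon on a C2H2 array found in the GRCm38 sequence, in place of the protein table first planned. Uniqueness was counted over 64-base words on both strands of 21 chromosomes.

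In each window the 3 regions lower and the 3 higher in both background comparisons, without overlap between backgrounds and with the smallest larger p, were named, with the interval and interaction regions of smallest p. Promoters of named gene families were chosen after their values were seen. The windows and lists were chosen with earlier results of these data known. On simulated counts of 246004 regions, the fit recovered 46% of 2-fold and 91% of 4-fold changes in D2-13B6 against B6, and 30% and 79% in D2 against B6-13D2. No change was simulated between B6-13D2 and B6, where it made 0 calls, so the recovery in that comparison was not tested. Alternatives tried were RLE and total-count scaling, DESeq2 1.42.0, TMM without chromosomes 11 and 13, no count filter, limits on uniqueness and soft-masking, a replicate block, and leaving out each library or the D2-13B6 line. Same-numbered libraries of different lines had correlations of their deviations of -0.049 to 0.068, so the numbers do not pair them.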

Additional observations from a re-analysis of the deposited data

Results flagged for a closer look

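The effect of the chromosome 13 interval differed between the 2 backgrounds by an interaction test at 72 of the 1422 regions (edgeR, adjusted p under 0.05), a count that ran from 21 to 129 when 1 library was left out and whose balance turned with the scaling. Among the regions described above, the log2 difference was 1.66 at the Zfp970 promoter, 1.43 at chr2:177329271-177330671, which holds a promoter copy, and 0.95 at chr4:147906112-147906899 near Mfn2. It was -1.61 at chr12:23789939-23791918 and -1.22 at chr12:19291597-19293272, the start of Gm10479 and Gm5953. Each of these comes from a test of the difference itself. The D2-13B6 line, in which stem cell and fibroblast marker promoters shift, enters every one of these tests, and the part of that shift was not tested.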

How the results depend on the processing

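The count of regions called in both background comparisons was 517, and it was 502 with RLE size factors, 543 with total counts, 488 with DESeq2, 520 with TMM off chromosomes 11 and 13, 518 without a filter, 391 under 50% soft-masked and 520 with a replicate block. Restricting to regions at least 90% unique gave 112, and there 210 in D2-13B6 against B6, 138 in D2 against B6-13D2, 145 in D2 against B6, 1 in B6-13D2 against B6, 87 in D2 against D2-13B6, 20 in the interaction and 0 in both interval comparisons, over fewer regions. With total counts the interaction gave 118, and both interval comparisons gave 2, as with RLE and DESeq2. Without the D2-13B6 line B6-13D2 against B6 gave 9. With the replicate block the 6 comparisons gave 791, 637, 685, 4, 298 and 76 regions in the order of D2-13B6 against B6, D2 against B6-13D2, D2 against B6, B6-13D2 against B6, D2 against D2-13B6 and the interaction. Leaving out 1 library gave 380 to 532 for both background comparisons, 0 to 2 for both interval comparisons, 670 to 788, 432 to 665, 585 to 702, 1 to 7, 199 to 322 and 21 to 129 in the same order. B6-13D2 against B6 gave 2 without B6 replicate 3 or B6-13D2 replicate 1 and 1 without B6-13D2 replicate 2. The interaction gave 42 without B6 replicate 1, 21 without B6-13D2 replicate 1, 25 without B6-13D2 replicate 2, 129 without D2-13B6 replicate 3 and 33 without D2 replicate 1. At chr12:19291597-19293272 the change in B6-13D2 against B6, which was not called (-0.05), turned to 0.03 without B6 replicate 1 and 0.15 without B6-13D2 replicate 1. The cause of these changes was not tested. The uniqueness limit and the fit without the D2-13B6 line were chosen after seeing the data. Of the calls in D2 against D2-13B6, 63.4% were higher with TMM, 77.9% with total counts, 52.3% with RLE and 54.6% with DESeq2, and in the interaction 41.7%, 21.2% with total counts and 53.8% with RLE. Total counts moved the median of all regions by -0.29 in D2-13B6 against B6 and 0.17 in D2 against D2-13B6. D2 against D2-13B6 gave 199 without D2 replicate 1 and 220 without D2-13B6 replicate 1. Depth limits the regions near 3 counts.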
